A study of Homo sapiens with 8 samples.

Results

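The HOXA cluster is a run of homeobox genes on chromosome 7. The genes examined here were the 8 HOXA members HOXA3, HOXA5, HOXA6, HOXA7, HOXA9, HOXA10, HOXA11 and HOXA13, together with MEIS1 on chromosome 2 and PBX3 on chromosome 9, which encode partner homeodomain proteins of the TALE class. They were taken by name, 10 of the 57189 genes in the count files, with earlier results of these data known. Poly(A) RNA had been sequenced from CUTLL1 (written CUTTL1 in the labels) and TIB153, a pair of established human T-cell acute lymphoblastic leukemia (T-ALL) lines grown in RPMI with 10% FBS. Each line was sequenced as control cells (placebo-treated, per the study) and after 1 µM PKF118-310 for 24 h. PKF118-310 is a small molecule that blocks the binding of β-catenin to TCF/LEF transcription factors, and the study used it to look for genes under β-catenin control. The labels give the cells of every group as not transfected.

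HOX proteins are transcription factors that give cells a position along the body axis, and in blood they help to keep stem and progenitor cells immature. The genes of a cluster lie in numbered order, and neighbouring genes are often active together. HOXA proteins bind DNA with PBX and MEIS proteins as cofactors. A group of T-ALL cases is marked by high HOXA expression, often through rearrangements that activate the locus or through fusion proteins that act on it, and MEIS1 is a known partner of HOXA9 in leukemia.

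Each of the 4 groups held 1 library (n = 1), sequenced in 2 lanes that are technical replicates and were summed, so values within a line carry counting error only. Library totals ran from 7609427 to 8140391 counts, and between the lanes of a library counts differed by no more than sampling noise (chi-square per degree of freedom 0.990 to 1.02). Levels are given as TMM-scaled CPM, which are counts put on one library size, with exact 95% Poisson intervals, and 3 counts lay at 0.357 to 0.405 CPM. All 10 T cell markers examined were detected in every library, with a summed level of 2042 to 2683 CPM, while the B cell genes MS4A1 and CD22 were at 0 counts in all of them. The summed level of the 8 myeloid markers was 0.714 to 3.37 CPM, with CSF1R, CSF3R and ELANE at 0. The 6 B cell markers summed to 10.8 to 105 CPM. The 6 stromal, endothelial and epithelial markers summed to 46.7 to 156 CPM, with DCN, CDH5 and EPCAM at 0 throughout. In CUTLL1 control the B cell sum was 10.8 CPM, all from CD79A. In TIB153 control it was 79.1 CPM, from CD79A and BLNK. The stromal, endothelial and epithelial sum came from COL1A1 and PECAM1 in both control libraries.

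The HOXA members were not read evenly along the cluster. HOXA5, HOXA6 and HOXA7, neighbours in the middle of the locus, carried most of the reads in both lines, as counts not divided by length. In CUTLL1 control cells they held 227 of the 291 counts of the 8 HOXA members, or 78.0% (exact 95% binomial interval 72.8 to 82.6%). In TIB153 control cells they held 356 of 398 counts, or 89.4% (86.0 to 92.3%). With PKF118-310 the shares were 81.3% (76.2 to 85.8%) and 89.3% (85.6 to 92.4%).

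HOXA7 (chr7:27153716-27157936, minus strand, hg38) had the highest level per length of all members in all 4 libraries. It had 118 counts in CUTLL1 control, 124 in treated CUTLL1, 197 in TIB153 control and 169 in treated TIB153. These are 15.9 CPM (13.2 to 19.1), 15.4 CPM (12.8 to 18.4), 25.6 CPM (22.1 to 29.4) and 20.1 CPM (17.2 to 23.4). The CUTLL1 libraries lay within each other's intervals, and both TIB153 libraries lay above them, though the interval of the treated one overlapped theirs. Of the 2411 exonic bases of HOXA7, 62.5% are also covered by the antisense gene HOXA-AS3 on the other strand, and whether the counting used strand is not known here. HOXA-AS3 itself had between 0 and 4 counts in the 4 libraries.

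HOXA5 (chr7:27141052-27143668, minus strand), which shares no exonic base with another gene, had 75 counts in CUTLL1 control and 51 with PKF118-310, against 104 and 84 in TIB153. Its levels were 10.1, 6.35, 13.5 and 10.0 CPM in that order. Each treated library was lower than its control. HOXA6 (chr7:27145396-27150603, minus strand) had 34, 43, 55 and 49 counts, or 4.59, 5.36, 7.14 and 5.83 CPM, and its intervals overlapped in all 4 libraries. HOXA3 (chr7:27106184-27152581, minus strand), whose longest transcripts start between HOXA6 and HOXA7, was sparse at 21, 10, 19 and 14 counts, or 2.83, 1.25, 2.47 and 1.67 CPM.

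The 5′ end of the cluster, with the higher gene numbers, differed between the lines. HOXA10 (chr7:27170591-27180261, minus strand) was detected in CUTLL1, with 37 counts in control and 36 in treated cells (4.99 and 4.48 CPM), and had a single count in each TIB153 library (0.130 and 0.119 CPM). HOXA13 (chr7:27193503-27200106, minus strand), the last gene of the cluster, had the opposite arrangement, with 21 and 19 counts in TIB153 (2.73 and 2.26 CPM) and 3 and 1 in CUTLL1. HOXA11 (chr7:27181510-27185223, minus strand), which lies between them, had 3 counts or fewer in every library.

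HOXA9 (chr7:27162435-27175180, minus strand), the HOXA gene best known in leukemia, was at or near 0. It had 0 counts in CUTLL1 control, 1 in treated CUTLL1, 1 in TIB153 control and 0 in treated TIB153. The upper ends of the 95% Poisson intervals were 0.498, 0.694, 0.724 and 0.439 CPM. Of its 3029 exonic bases, 2548 are shared with no other gene on the same strand. At this depth HOXA9 expression was not detectable above 3 counts in either line.

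**Figure D1:**
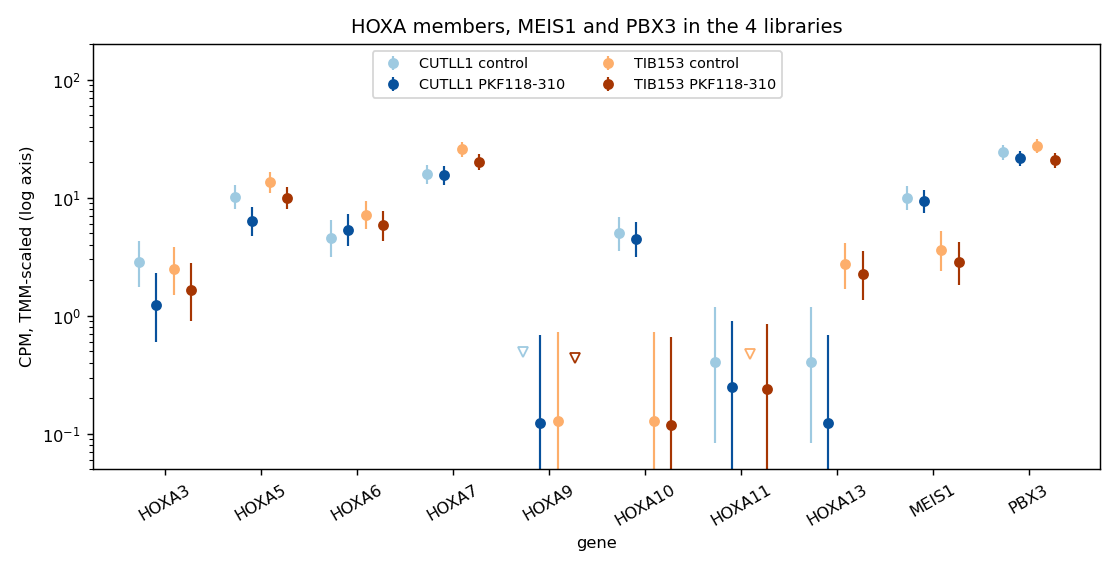
Level of each member in the 4 libraries, as TMM-scaled CPM on a log axis, with exact 95% Poisson intervals as bars, 1 library a point. Open triangles stand for libraries with 0 counts and mark the upper end of the interval. HOXA7 reaches 25.6 CPM in TIB153 control, HOXA10 is detected in CUTLL1 with 1 count in each TIB153 library, HOXA13 lies mainly in TIB153, and HOXA9 has at most 1 count in any library.

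The promoters of HOXA9, HOXA10 and HOXA13 are shown because these genes set the pattern at the 5′ end of the cluster, near 0 in both lines, read in CUTLL1 and read in TIB153, respectively. Each window runs from 250 bases before to 30 bases after the start given by RefSeq (GRCh38.p14), where 9 of the 10 members had an entry, HOXA5 being the exception. Capitals mark a PBX-HOX word in HOXA9 and a TCF/LEF word in HOXA10. RefSeq gives another HOXA10 start as well, and the window shown was chosen because it holds that word.
HOXA9 promoter, chr7:27165508-27165787, minus strand: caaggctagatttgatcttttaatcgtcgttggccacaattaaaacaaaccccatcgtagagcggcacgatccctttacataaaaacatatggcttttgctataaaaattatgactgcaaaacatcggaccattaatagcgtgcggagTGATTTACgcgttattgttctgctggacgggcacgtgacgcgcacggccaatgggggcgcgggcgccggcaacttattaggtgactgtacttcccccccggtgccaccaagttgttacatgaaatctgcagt
HOXA10 promoter, chr7:27179832-27180111, minus strand: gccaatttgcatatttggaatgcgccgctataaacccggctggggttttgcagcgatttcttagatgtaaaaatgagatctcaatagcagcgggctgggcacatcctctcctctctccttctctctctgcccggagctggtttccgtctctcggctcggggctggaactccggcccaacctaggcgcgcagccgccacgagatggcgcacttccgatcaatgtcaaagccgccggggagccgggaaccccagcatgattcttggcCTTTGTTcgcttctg
HOXA13 promoter, chr7:27200062-27200341, minus strand: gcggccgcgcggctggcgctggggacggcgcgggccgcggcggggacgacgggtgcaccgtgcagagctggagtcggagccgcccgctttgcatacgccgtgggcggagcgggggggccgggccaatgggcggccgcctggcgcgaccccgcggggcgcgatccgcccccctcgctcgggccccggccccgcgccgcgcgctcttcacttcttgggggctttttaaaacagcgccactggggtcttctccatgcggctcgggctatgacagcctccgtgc

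The TCF/LEF words searched on both strands of the full windows, which run to 50 bases after the start, were the 4 of the form CTTTG with an adenine or thymine at each of the following 2 positions. Among the 16 promoters of the 9 members they were found in HOXA10, 15 bases after the start shown, and in HOXA11. The other HOXA10 promoter, chr7:27174271-27174570, held none. They occur in 13.8% of the 35116 promoters in the table. The PBX-HOX words TGATTTAT, TGATTTAC and TGATTGAT were found in HOXA9 alone among the members, 102 bases before its start, and occur in 1.91% of all promoters. A match says only that these letters are in the window.

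MEIS1 (chr2:66433452-66573869, plus strand), the TALE cofactor that stabilises PBX-HOX complexes, had 74 counts in CUTLL1 control cells and 75 in treated ones, and 28 and 24 in TIB153. These are 9.98, 9.34, 3.64 and 2.86 CPM. Both TIB153 libraries lay below both CUTLL1 libraries, with no overlap of the intervals. PBX3 (chr9:125747345-125967377, plus strand), the PBX protein most often linked to HOXA9 in leukemia, was near even, with 179, 173, 212 and 174 counts or 24.1, 21.6, 27.5 and 20.7 CPM. Its interval in each library overlapped those of the other 3.

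Per length, the order of levels in CUTLL1 control was HOXA7 (6.60 RPKM), HOXA5 (5.93), PBX3 (5.33), HOXA6 (3.57), HOXA10 (1.35), MEIS1 (0.913), HOXA3 (0.658), HOXA11 (0.175), HOXA13 (0.0796) and HOXA9 (0). RPKM is CPM divided by the length of a gene's annotated exons in kilobases. In TIB153 control it was HOXA7 (10.6 RPKM), HOXA5 (7.91), PBX3 (6.08), HOXA6 (5.56), HOXA3 (0.573), HOXA13 (0.536), MEIS1 (0.333), HOXA9 (0.0429), HOXA10 (0.0350) and HOXA11 (0). Few neighbours in this order differed beyond counting error. In CUTLL1 control the steps from PBX3 to HOXA6, from HOXA6 to HOXA10 and from HOXA3 to HOXA11 did. In TIB153 control those from HOXA7 to HOXA5, HOXA5 to PBX3, HOXA6 to HOXA3 and MEIS1 to HOXA9 did. No member was abundant for these cells: HOXA7 in TIB153 control, the highest, lay at the 64.9th percentile of RPKM among the genes that passed the filter on low counts, and MEIS1 at 0.913 RPKM in CUTLL1 control at the 16.2nd.

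**Figure D2:**
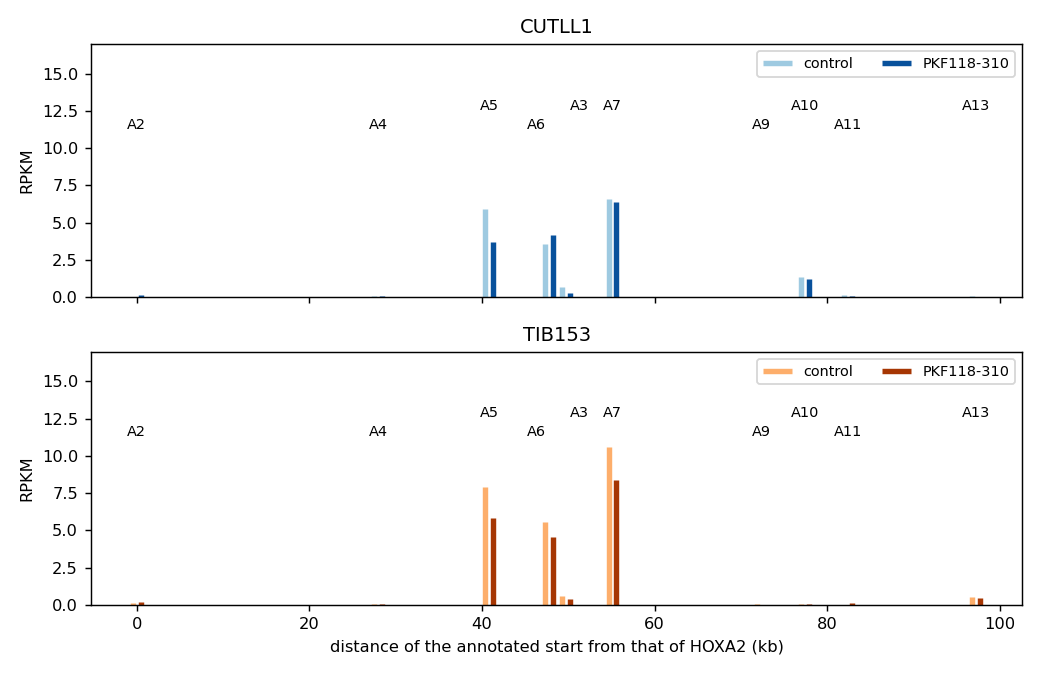
RPKM of HOXA genes against the distance of their annotated start from that of HOXA2, in kb, with CUTLL1 above and TIB153 below, lighter bars for control and darker for PKF118-310. Bars at A5, A6 and A7 stand highest in both lines, at up to 10.6 RPKM for HOXA7 in TIB153 control, while A10 stands in CUTLL1 at 1.35 RPKM and A13 in TIB153 at 0.536 RPKM.

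The next comparison asked whether PKF118-310 changed these genes within each line. Ratios are log2 of treated over control CPM with a pseudocount of 0.5 counts and an exact binomial counting interval, and a gene was called where it moved at least 2-fold with an interval that leaves out no change. Of the 10 members, 8 passed the filter on low counts, which kept 13280 genes, and HOXA9 and HOXA11 did not. HOXA10 passed on its CUTLL1 reads and HOXA13 on its TIB153 reads. In CUTLL1, 1 of the 8 was called lower (HOXA3) and 0 were called higher. Among all genes tested in CUTLL1, 4.80% were called higher and 2.21% lower.

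HOXA3 in CUTLL1 had a ratio of −1.15 (−2.44 to −0.04), from 21 to 10 counts, a 2.22-fold lower level whose interval nearly reaches no change. In each lane taken alone it was not called, and with scaling by total counts alone it also was not. HOXA5 was lower in CUTLL1 by a ratio of −0.67 (−1.21 to −0.14), or 1.59-fold, which is beyond counting error but under the 2-fold limit. The others lay near 0, at −0.16 (−0.47 to 0.15) for PBX3, −0.15 (−0.86 to 0.55) for HOXA10, −0.10 (−0.58 to 0.39) for MEIS1, −0.04 (−0.42 to 0.33) for HOXA7 and 0.22 (−0.46 to 0.92) for HOXA6. HOXA13 had 3 counts or fewer in both CUTLL1 libraries and has no ratio. In the same pair of libraries all 10 T cell markers were lower beyond counting error, and their summed level went from 2633 to 2042 CPM. Their part in the member ratios was not tested. In bulk RNA of a cell line, fewer cells with these transcripts and fewer transcripts per cell cannot be told apart.

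In TIB153, 0 of the 8 members were called in either direction, beside 5.47% of all genes called higher and 2.12% called lower. The interval lay below 0 for 3 members. These were HOXA5 at −0.43 (−0.87 to −0.005), PBX3 at −0.41 (−0.71 to −0.11) and HOXA7 at −0.35 (−0.65 to −0.04), which correspond to levels 1.35-, 1.33- and 1.27-fold lower. Among all genes tested, 28.7% had an interval wholly below 0 in TIB153 and 23.9% in CUTLL1. HOXA3 lay at −0.55 (−1.67 to 0.51), MEIS1 at −0.34 (−1.20 to 0.49), HOXA6 at −0.29 (−0.88 to 0.29) and HOXA13 at −0.27 (−1.25 to 0.70).

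Most ratios pointed down. The median ratio over the 7 members with more than 3 counts was −0.15 in CUTLL1 and −0.35 in TIB153, beside 0.004 and −0.006 over all genes with more than 3 counts. In CUTLL1 6 of the 7 lay below 0 and in TIB153 all 7, where 49.7% and 50.5% of all genes did. The lines' responses did not differ beyond counting error for any member with over 3 counts in all libraries. The difference, TIB153 minus CUTLL1, was largest for HOXA3, at 0.60 (−0.85 to 2.04), and HOXA6, at −0.51 (−1.36 to 0.34), with intervals too wide to bound a difference closely.

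**Figure D3:**
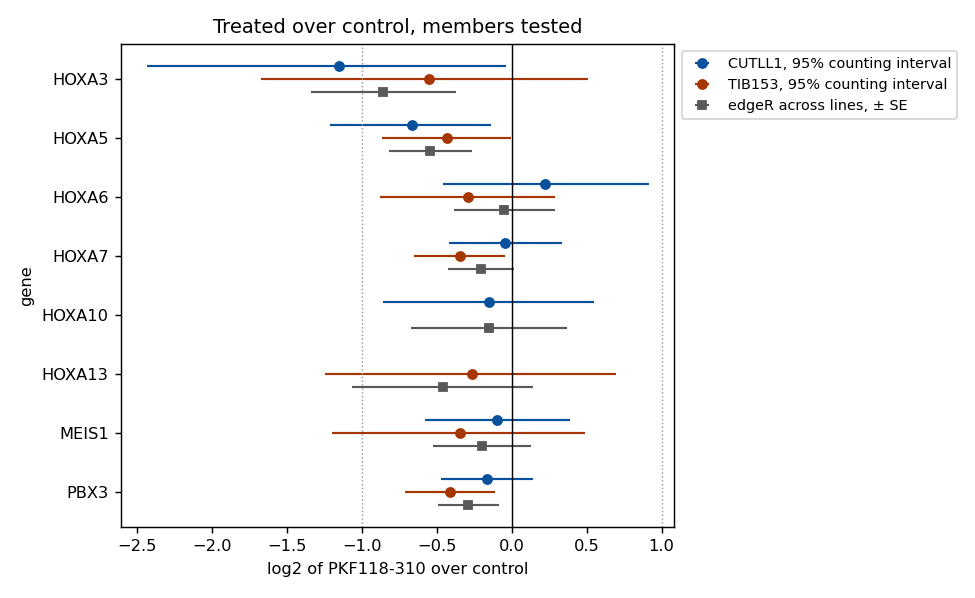
Log2 of PKF118-310 over control for the 8 members tested, with 95% counting intervals for each line (circles) and the edgeR estimate across lines with its SE (squares). Dotted lines mark 2-fold. HOXA3 in CUTLL1, at −1.15, is the only ratio past 2-fold, and HOXA5 lies below 0 in both lines.

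Over both lines together, the effect of PKF118-310 was tested with edgeR (quasi-likelihood, line as a block, n = 2 lines, 1 residual degree of freedom, Benjamini-Hochberg adjustment over 13280 genes). This call passed 6.11% of all genes as higher and 6.78% as lower with treatment. None of the 8 members passed, 0 had an unadjusted p under 0.05, and DESeq2's Wald test also called 0, with an adjusted p for 3 of the 8. The fitted log2 changes of all 8 lay below 0, as did those of 6637 of the 13280 genes tested. HOXA5 changed by −0.54 ± 0.28 (SE, edgeR adjusted p = 0.213), the smallest p of the group, and HOXA3 by −0.86 ± 0.48 (edgeR adjusted p = 0.262). The other changes ran from −0.46 for HOXA13 to −0.05 for HOXA6, with edgeR adjusted p of 0.371 to 0.943. The directions of HOXA6, HOXA10, HOXA13 and MEIS1 turned under another scaling or with 1 lane left out.

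The second question was how the untreated lines differ. When the 2 control libraries were compared, 9.45% of all genes were called higher in TIB153 and 6.12% lower. MEIS1, which was well counted in both lines, was called lower. HOXA10 and HOXA13 passed the filter on low counts only through the line where each is high, so they had to differ, and their values are given as a description with no test.

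HOXA10, from 37 counts in CUTLL1 control to 1 in TIB153 control, gave a ratio of −4.70 (−10.6 to −2.70). The treated libraries gave −4.67 (−10.6 to −2.67), and both values rest on a single count in TIB153. HOXA13 gave 2.56 (1.01 to 5.14), from 3 to 21 counts, and 3.64 (1.53 to 9.56) in the treated libraries. MEIS1 was lower in TIB153 control by a ratio of −1.44 (−2.14 to −0.81), or 2.72-fold, and in the treated libraries by −1.69 (−2.44 to −1.03).

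HOXA7 was higher in TIB153 control by 0.68 (0.35 to 1.03), or 1.60-fold, under the 2-fold limit, and by 0.38 (0.04 to 0.73) in the treated libraries. HOXA6 at 0.63 (−0.004 to 1.30) and HOXA5 at 0.41 (−0.03 to 0.86) pointed the same way in control cells without leaving counting error. PBX3 at 0.19 (−0.10 to 0.48) and HOXA3 at −0.20 (−1.17 to 0.77) did not differ beyond it.

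In the edgeR fit over all 4 libraries, with treatment as the other term, 14.6% of all genes passed as higher in TIB153 and 13.5% as lower. MEIS1 passed, with a log2 difference of −1.58 ± 0.33 (edgeR adjusted p = 0.0029). With DESeq2's Wald test it did not (adjusted p = 0.0689), and over all alternatives run its adjusted p ran from 9.5e-05 to 0.0689. The fitted differences of HOXA10 and HOXA13 were −5.08 ± 0.67 and 3.20 ± 0.69. HOXA7 changed by 0.53 ± 0.22 (edgeR adjusted p = 0.0867), and passed with the first lane left out (edgeR adjusted p = 0.0440, against 0.0440 to 0.451 over all alternatives). The 2 libraries of a line are 1 control and 1 treated culture, and treatment is a term of the fit. These p-values therefore rest on how far the treatment responses of the lines differ, with the spread mostly pooled over genes. They do not measure the spread between separate cultures of one kind.

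Other genes of the HOXA locus were sparsely read. HOXA4 had 1 count in each library, HOXA2 at most 4, and the antisense transcripts HOXA-AS2 and HOXA10-AS had 0. HOTTIP, the long noncoding RNA beside HOXA13, had 3 counts in treated TIB153 and 0 elsewhere.

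Some genes of the other HOX clusters also differed between the lines. Of 28 HOXB, HOXC and HOXD genes, 9 passed the filter. HOXB3 (0.91 ± 0.19) and HOXB7 (1.09 ± 0.26), which reached the count minimum in all 4 libraries, were higher in TIB153, with edgeR adjusted p of 0.0026 and 0.0065, where 14.6% of all genes passed as higher and 13.5% as lower. HOXC10, HOXB13 and HOXC11 passed the filter through their TIB153 libraries and are described with no test. HOXC10, at 12 and 4 counts in the CUTLL1 libraries, reached 84 and 129 in those of TIB153. HOXB13, of the same paralog group as HOXA13, had 5 and 9 against 34 and 69. HOXC11 had 0 and 1 against 11 and 23 counts, at least 3.53-fold higher in TIB153 control when 0 is set to 3 counts. Log2 differences of the remaining genes with at least 10 counts were 0.47 for HOXB4, 0.77 for HOXC4, −0.82 for HOXD13 and −0.19 for HOXD8, none of which passed. HOXB9 had 3, 3, 2 and 13 counts and HOXC6 had 7, 3, 2 and 11, too few for the fit.

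With PKF118-310, none of these 9 genes passed across lines in the edgeR fit, beside 6.11% of all genes that rose and 6.78% that fell. Their median change was 0.12. HOXB3 stood nearest, at 0.56 ± 0.19 (edgeR adjusted p = 0.0665), where CUTLL1 went from 117 to 178 counts and TIB153 from 218 to 365. HOXC10 moved from 84 to 129 counts in TIB153, a ratio of 0.49 (0.09 to 0.91), and from 12 to 4 in CUTLL1, a ratio of −1.59 (−3.79 to 0.02).

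**Figure D4:**
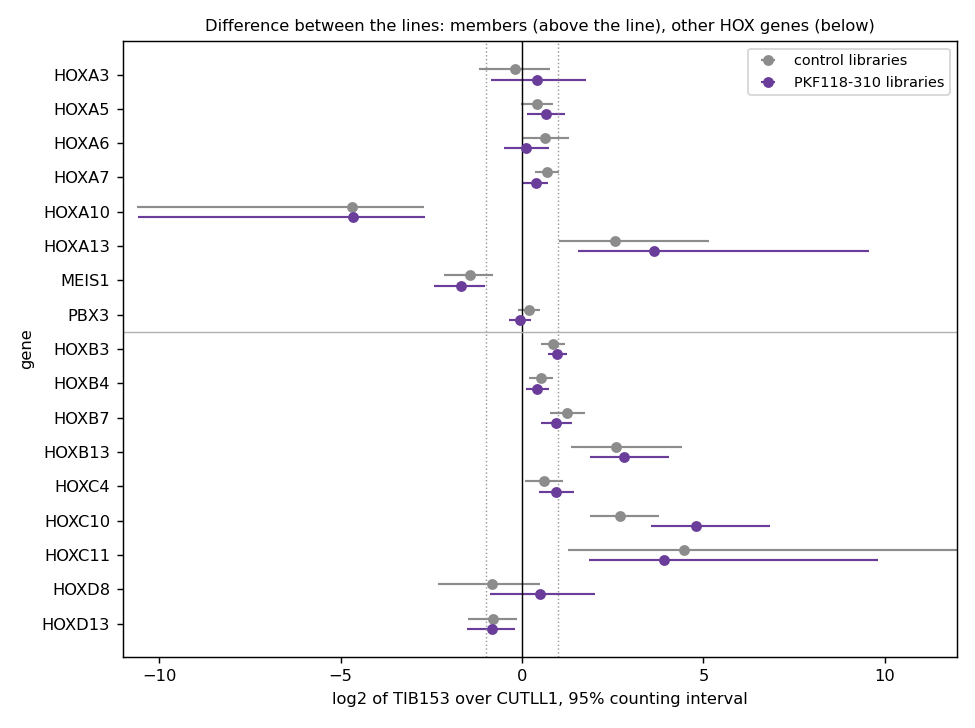
Log2 of TIB153 over CUTLL1 in the control libraries (grey) and in the PKF118-310 libraries (purple), with 95% counting intervals, for the 8 members tested and for other HOX genes that passed the filter. Dotted lines mark 2-fold, and the bar of HOXC11 in control runs off the axis because CUTLL1 had 0 counts. HOXA10 and MEIS1 lie to the left, at −4.70 and −1.44 in control, and HOXA13, HOXB13, HOXC10 and HOXC11 to the right.

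Among other TALE homeobox genes, the family of MEIS1 and PBX3, 7 of 10 passed the filter. Of these, 0 were called with PKF118-310 across lines in the edgeR fit, beside 6.11% of all genes that rose and 6.78% that fell. The median change of the 7 was 0.25. MEIS2 lay below control in both lines, at −0.53 (−0.96 to −0.11) in CUTLL1 and −0.56 (−1.11 to −0.02) in TIB153, with an edgeR change of −0.54 ± 0.28 (adjusted p = 0.210). TGIF1, a repressor of the same class, was above control, at 1.06 (0.60 to 1.55) and 0.48 (0.14 to 0.83), with an edgeR adjusted p of 0.0696. TGIF2 (0.39 ± 0.16) and IRX3 (0.33 ± 0.15) had edgeR adjusted p of 0.124 and 0.156. PBX2 lay at 65.1 to 90.4 CPM in the 4 libraries.

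MLL complexes keep HOXA genes active by methylating histone H3 at their promoters, and DOT1L methylates the same histone along their bodies. Of 18 such genes, 1 rose and 1 fell with PKF118-310 across lines in the edgeR fit, beside 6.11% of all genes that rose and 6.78% that fell. KDM6B, a demethylase that removes the Polycomb mark, rose by 0.74 ± 0.17 (edgeR adjusted p = 0.0197), from 61.5 to 133 CPM in CUTLL1 and 103 to 134 in TIB153. PSIP1, the chromatin reader that tethers MLL and menin, fell by 0.57 on the log2 scale (SE 0.12, edgeR adjusted p = 0.0107), from 221 to 156 CPM and 257 to 164 CPM. HCFC1 (−0.41 ± 0.14) and KDM6A (0.48 ± 0.16) did not pass, with edgeR adjusted p of 0.0779 and 0.0689. The median change of the list was 0.05, beside 0.0003 over all genes.

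Polycomb complexes hold HOX genes silent. Of 26 members, 3 rose and 1 fell across lines in the edgeR fit, beside the same 6.11% and 6.78% of all genes, with a median change of 0.09, and values are given for 3 of these. PHF1, a PRC2 accessory protein, rose by 1.09 ± 0.16 (edgeR adjusted p = 0.0015). CBX8, a PRC1 chromodomain protein, rose by 0.99 ± 0.17 (edgeR adjusted p = 0.0030). RBBP7, a histone-binding subunit shared by several chromatin complexes, fell by 0.83 on the log2 scale (SE 0.12, edgeR adjusted p = 0.0014), from 207 to 114 CPM in CUTLL1 and 206 to 118 in TIB153. These 3 genes also passed with DESeq2, at adjusted p of 0.0030, 0.0126 and 0.00070 in the order named.

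Genes known to be bound or raised by HOXA9 and MEIS1 in leukemia did not all move one way. Of 22, 16 passed the filter, and 3 rose and 1 fell across lines, with a median change of 0.31, where 6.11% of all genes rose and 6.78% fell. ID2, an inhibitor of basic helix-loop-helix factors, rose by 1.94 ± 0.35 (edgeR adjusted p = 0.0048), with counts of 22 and 124 in control and treated CUTLL1 and of 21 and 63 in TIB153. MYB rose by 0.84 ± 0.19 (edgeR adjusted p = 0.0221) and SOX4 by 0.47 ± 0.13 (edgeR adjusted p = 0.0305), both transcription factors of immature lymphoid cells. CDK6, a cell cycle kinase, fell by 0.52 on the log2 scale (SE 0.14, edgeR adjusted p = 0.0240). HLF (1.14 ± 0.37) and PIM1 (0.65 ± 0.26) had edgeR adjusted p of 0.0555 and 0.126. FLT3 and LMO2 had at most 1 count in any library.

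Genes that form fusions in HOXA-positive leukemia were 7 in the files. XPO1, the nuclear export receptor, fell by 0.54 on the log2 scale (SE 0.13, edgeR adjusted p = 0.0191), and the other 6 did not pass, where 6.78% of all genes fell. Among them NUP98 (0.29 ± 0.12), SET (−0.26 ± 0.13) and PICALM (−0.20 ± 0.13) had edgeR adjusted p of 0.137, 0.205 and 0.331. The median change of the 7 was −0.12. Gene counts do not separate fused from normal transcripts.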

How the data were processed

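Poly(A) RNA, extracted with Trizol, was made into stranded libraries per the labels. The authors deposited whole-number counts per gene for each lane. In the submitters' processing notes HISAT2, HTSeq and DESeq2 are named, with hg38, while versions, strand setting and handling of reads shared by genes are not given in the sources used here. The authors' comparison tables hold only their fold changes, p-values and counts that are not the lane counts, and were not used. Lanes were summed to 4 libraries. Gene models were those of GENCODE release 29, which matched 99.6% of 11796 genes with 80 reads or more.

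The tools were DESeq2 1.42.0, limma 3.58.1 and edgeR 4.0.16 under R 4.3.3. Genes were kept by filterByExpr (treatment as group) and scaled by TMM. Ratios used a pseudocount of 0.5 counts, and a ratio was not given where both libraries held 3 counts or fewer. Intervals cover counting error only, since each group held 1 library. Reads carried no molecular identifiers, so repeat reads of a molecule could not be recognised. edgeR's quasi-likelihood fit (robust) had line and treatment as terms, and its spread was mostly pooled over genes (median 13.0 prior degrees of freedom, 1 residual). Scripts were tested on simulated data. The 10 members and all lists were chosen with earlier results of these data known. Named genes were all members, other HOX genes with at least 10 counts, up to 4 genes per list with the largest mean ratio at 5 CPM or more, and listed genes called across lines where a list had 5 or fewer, and some genes this rule names are not reported here. DDX3X, ASXL2, PBX2 and genes named at or near 0 counts were added after their values were seen. Alternatives were other scalings, DESeq2, other filters, pseudocount and fold limits, single lanes, no block for the line and, added later, the treated pair for the line difference.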

Additional observations from a re-analysis of the deposited data

Results flagged for a closer look

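None of the 8 members tested moved beyond counting error in opposite directions in the lines. HOXA10, with 1 count in each TIB153 library, and HOXA13, with 3 and 1 in CUTLL1, had too few counts to show such a move. Among the 92 genes of the members and related lists together that passed the filter, 2 moved in this way, as did 3.40% of all genes tested. ASXL2, a Polycomb-associated protein, had a log2 ratio of treated over control of 0.22 (95% counting interval 0.06 to 0.37) in CUTLL1 and −0.42 (−0.59 to −0.25) in TIB153. DDX3X, an RNA helicase fused in some HOXA-positive leukemias, had 0.12 (0.06 to 0.17) in CUTLL1 and −0.31 (−0.37 to −0.25) in TIB153. With 1 library per group, these differences between lines were not tested.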

How the results depend on the processing

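The cause of a change under a setting was not tested, except where fewer reads were used. In CUTLL1, the number of members called lower with PKF118-310 was 1, beside 2.21% of all genes at the 2-fold limit. It was 0 with total-count scaling, 2 with a limit of 1.5-fold and 0 to 0 with 1 lane left out. The shares of all genes under these other settings were not computed. The number higher in TIB153 control than in CUTLL1 control was 1, beside 9.45% of all genes at the 2-fold limit. With the 1.5-fold limit it was 2, and no share of all genes was computed at that limit. With DESeq2's Wald test the number of members higher in TIB153 across treatments was 0 in place of 1 and the number lower 1 in place of 2. In the edgeR fit 14.6% of all genes passed as higher and 13.5% as lower. With 1 lane left out, the number higher was 1 to 2. In the main settings the member called higher was HOXA13, and those called lower were HOXA10 and MEIS1. HOXA10 and HOXA13 had to differ, so their part in these counts is a description with no test. The treatment change of HOXA6 turned to 0.0069 with total-count scaling. With 1 lane left out, that change ranged from −0.20 to 0.15 for HOXA6, −0.43 to 0.23 for HOXA10, −0.81 to 0.19 for HOXA13 and −0.44 to 0.054 for MEIS1, and the line difference from −0.22 to 0.27 for HOXA3 and −0.011 to 0.15 for PBX3. Of the 206 ratios and changes of members computed under an alternative, 188 kept their direction, and the 18 that turned were of members not called in that comparison. Of 60 counts of members called, 52 stayed within 1.5 times. Over all genes, the treatment calls were 812 higher and 900 lower, 194 and 249 with DESeq2 (10190 genes with an adjusted p), 0 and 0 without the block for the line, 1001 and 1320 with no filter on low counts, 509 and 583 without the first lane. The share of higher calls moved from 47.4% to 60.0% with total-count scaling (827 and 552). The line calls were 1935 and 1792, and 842 and 858 with DESeq2. The smallest members were limited by depth, with HOXA9 and HOXA11 at 3 counts or fewer.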
